A study of Rattus norvegicus with 2 samples.

Results

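The phagocyte NADPH oxidase was examined in lumbar spinal cord (SC) of rats with chronic constriction injury (CCI), a model of neuropathic pain. The members were chosen by gene name, from a list of 7 subunits, homologs and a partner of the enzyme, namely Cybb, Cyba, Ncf1, Ncf4, Nox1, Nox4 and Hvcn1. This choice was made with earlier results of these data known. Of the 18166 genes with a probe set of their own on the array, 6 were members. Nox1 had no probe set that was assigned to it alone and was not analysed here. The SC (segments L4-L6) came from adult male Sprague-Dawley rats on day 10 after surgery. In the CCI group the left sciatic nerve carried 4 loose ligatures, and in the Sham group the nerve was exposed without ligation. RNA of 3 rats was mixed for each group and measured on 1 Affymetrix Rat Gene 2.0 ST array, so that the data were 2 arrays with no replicates. No difference below therefore has an error or a test, and differences between rats cannot be seen.

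The oxidase moves electrons from NADPH across a membrane to oxygen and so makes superoxide, which phagocytes use against microbes. Its catalytic core is NOX2 (gp91phox, encoded by Cybb), which is held stable in the membrane by p22phox (Cyba). At rest cytosolic subunits, among them p47phox (Ncf1) and p40phox (Ncf4), stay apart from this core. When p47phox is phosphorylated they move to the membrane, where the GTPase Rac joins them and electron flow begins. The proton channel Hv1 (Hvcn1) lets protons follow the electrons, which keeps the charge across the membrane from stopping the flow. In the central nervous system NOX2 is best known from microglia, and in mice spinal microglial NOX2 has been linked to pain hypersensitivity after nerve injury. NOX4, a homolog that also needs p22phox, is active without the cytosolic subunits, releases mainly hydrogen peroxide, and is known from kidney and vessels.

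Values are log2 expression after robust multi-array average (RMA), and a difference is the CCI value minus the Sham value. Over all genes the median difference was -0.01 with an SD of 0.26. Neuron, astrocyte and oligodendrocyte markers stood at median log2 values of 9.51, 10.94 and 10.60 in Sham, so that the cell types of the labelled tissue were well above the background level given next. A rough background level was taken from 226 olfactory and vomeronasal receptor genes, whose 95th percentile was 4.27 in Sham and 4.11 in CCI. Past 1.5-fold were 2.65% of these receptors upward and 3.54% downward, so that genes at low level also pass this threshold. Levels of different genes come from different probes and are not compared with one another.

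The promoters of the 3 oxidase members with higher values in CCI for which RefSeq sequence was at hand are shown first. Each is a window of 250 bases on build GRCr8, read 5′ to 3′ on the gene's strand. The windows are chrX:16065066-16065315 for Cybb (minus strand), chr12:28121635-28121884 for Ncf1 (plus strand) and chr19:67404215-67404464 for Cyba (minus strand). Those of Cybb and Cyba end directly before the annotated gene. The annotated Ncf1 gene begins at chr12:28121816, inside its window, so that the end of this window lies within the gene. Capitals mark matches, on either strand, to the core GAGGAA of the myeloid transcription factor PU.1 and to the repeat of interferon regulatory factors, in which GAAA recurs after 2 free bases.
Cybb: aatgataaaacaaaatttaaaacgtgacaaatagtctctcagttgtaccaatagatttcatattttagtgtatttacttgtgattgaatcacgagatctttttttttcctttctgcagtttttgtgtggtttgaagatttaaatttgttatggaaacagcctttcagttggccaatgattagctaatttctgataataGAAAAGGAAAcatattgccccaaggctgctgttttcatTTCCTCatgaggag
Ncf1: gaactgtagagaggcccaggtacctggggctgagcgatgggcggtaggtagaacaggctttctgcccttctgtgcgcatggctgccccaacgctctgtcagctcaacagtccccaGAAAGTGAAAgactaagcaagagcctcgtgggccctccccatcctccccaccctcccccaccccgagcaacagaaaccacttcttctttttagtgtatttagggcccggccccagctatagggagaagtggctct
Cyba: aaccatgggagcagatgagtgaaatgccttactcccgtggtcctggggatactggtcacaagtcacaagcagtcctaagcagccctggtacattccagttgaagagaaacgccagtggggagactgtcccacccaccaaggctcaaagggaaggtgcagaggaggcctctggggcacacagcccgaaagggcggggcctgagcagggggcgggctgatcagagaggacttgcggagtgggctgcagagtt

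The Cybb window held 1 PU.1 core, which began 14 bases before the start and is read on the opposite strand (TTCCTC as printed), and 1 interferon regulatory factor repeat, which began 52 bases before the start. These matches do not overlap. The Ncf1 window held 1 such repeat, which began 135 bases before the end of that window, and no PU.1 core. The Cyba window held neither. Among 33469 rat promoter windows of the same length, 23.3% held the PU.1 core and 3.41% the repeat. The C/EBP motif TTNNGNAA was found once in the Cybb window (37.2% of all windows) and not in those of Ncf1 and Cyba. The Sp1 motif GGGCGG was found in the Ncf1 and Cyba windows, and in that of Nox4, but not in that of Cybb (30.5% of all windows). The window of Nox1, which the array did not measure here, held 1 PU.1 core and 2 C/EBP matches, so that these were not particular to Cybb. The GC content was 32.0% for Cybb and 40.0% for Nox1, below the median of 51.2% over all windows, and 58.4% for Ncf1, 59.6% for Cyba and 72.8% for Nox4. The annotated Nox4 gene begins at chr1:150313736, inside its window of chr1:150313639-150313888, so that this window lies partly within the gene. A match is a description of the letters and no evidence that a factor binds there.

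The catalytic subunit and its organiser were the members with the largest differences. Cybb measured 6.01 in Sham and 6.88 in CCI, a difference of 0.86 or 1.82-fold. Among the 500 genes of closest mean level, 2 had a difference as large or larger. Ncf1, whose product p47phox carries the other cytosolic subunits to the membrane, measured 5.72 in Sham and 6.59 in CCI, a difference of 0.88 or 1.84-fold. Here 3 of the 500 genes nearest in level reached its difference. Among all 18166 genes ordered by their difference, Ncf1 was the 75th and Cybb the 77th from the top, and they differed from each other by 0.01 on the log2 scale. Of the 6 measured members, these 2 passed 1.5-fold upward and 0 passed it downward. Of all genes, 298 (1.64%) were higher and 208 (1.14%) lower past that threshold. The median difference of the 6 members was 0.43, beside -0.01 over all genes. Because the members were chosen with earlier results of these data known, their direction is no independent evidence. In tissue RNA, more cells of a type and more RNA per cell cannot be told apart.

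**Figure D1:**
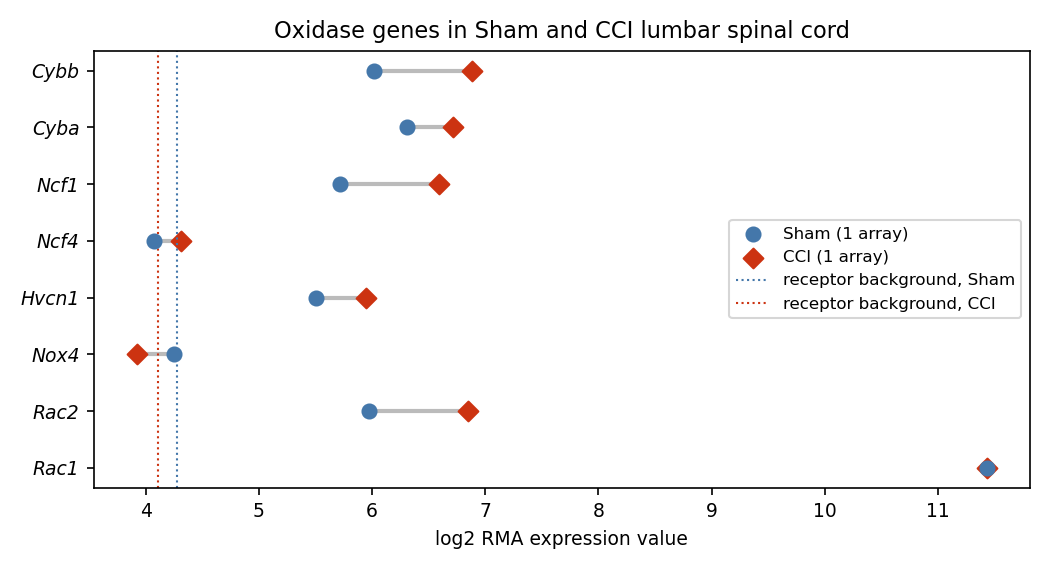
Log2 RMA expression value (x axis) of the 6 measured members and of Rac2 and Rac1 on the Sham array (circles) and the CCI array (diamonds), 1 array per group, with dotted lines at the receptor background level of each array. Cybb, Ncf1 and Rac2 show the widest gaps to the right, Ncf4 and Nox4 lie at the background level, and the Rac1 symbols coincide; positions of different genes along the axis are not comparable.

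The membrane partner and the proton channel were higher in CCI by less than the threshold. Cyba, without which neither NOX2 nor NOX4 is stable, measured 6.31 in Sham and 6.72 in CCI, a difference of 0.41 or 1.33-fold, which 16 of 500 genes of like level reached. The difference of Cybb exceeded that of Cyba by 0.46 on the log2 scale. Hvcn1 measured 5.50 in Sham and 5.95 in CCI, a difference of 0.45 or 1.36-fold, which 25 of 500 genes of like level reached. These values lay above the background level on both arrays, as did those of Cybb and Ncf1, so that 4 of the 6 members were clear of it throughout.

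The remaining members were at the background level. Ncf4, whose product p40phox binds a lipid of phagosome membranes, had 4.07 in Sham, which is under the background level, and 4.31 in CCI, just over it. Its fold was at least 1.03, which does not establish a difference, and 126 of 500 genes of like level reached its difference of 0.24. Nox4 was the only member with a lower value in CCI, at 4.25 in Sham and 3.92 in CCI, below the background level on both arrays. No fold is given for it, and 31 of 500 genes of like level were as low or lower.

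**Figure D2:**
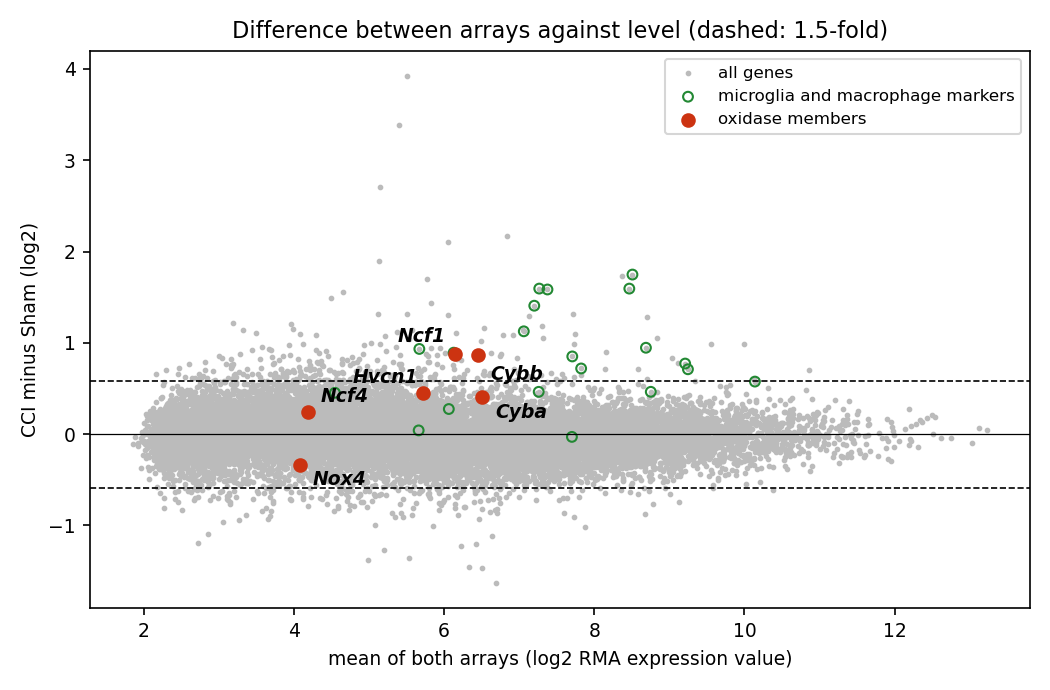
Difference CCI minus Sham (y axis, log2) against the mean of both arrays (x axis, log2 RMA expression value), with 1 point per gene, the oxidase members filled and named, the microglia and macrophage markers as open circles, and dashed lines at 1.5-fold. Cybb (0.86) and Ncf1 (0.88) lie above the upper line at the edge of the cloud of genes of their level, whereas Cyba, Hvcn1, Ncf4 and Nox4 lie between the lines.

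Among the other subunits and homologs, Rac2 was the gene nearest to the oxidase core. Rac2, the Rac GTPase of blood cells, measured 5.97 in Sham and 6.85 in CCI, a difference of 0.88 or 1.84-fold. It ranked 74th of all genes, directly above Ncf1. Rac1, which is expressed in most cells and can serve the same role, measured 11.44 in Sham and 11.43 in CCI. The Rac2 difference exceeded that of Rac1 by 0.88 on the log2 scale. Of the 10 measured genes on this list, Rac2 alone passed 1.5-fold, beside 1.64% of all genes upward. On the list 6 were higher and 4 lower, and the median difference was 0.11. Cybc1, a chaperone needed for NOX2 protein, measured 7.49 in Sham and 7.33 in CCI. NOX3, NOXA1, NOXO1 and the DUOX enzymes serve oxidases of other tissues such as inner ear, colon and thyroid. Nox3 (4.04 and 3.82), Duoxa1 (3.45 and 3.91) and Duoxa2 (2.83 and 3.12) were below the background level on both arrays (Sham and CCI value in turn). Noxa1, Noxo1 and Duox2 were below it in Sham, and Duox1 was at 4.51 and 4.31.

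The genes whose difference was nearest to that of Cybb, over 2 arrays and among 9082 other genes at or above the median level, were Cd180 (0.86), Plek (0.86) and Nckap1l (0.85). Those nearest to Ncf1 were Rac2 (0.88), Cd37 (0.88) and Ppfibp2 (0.88). Within 0.05 of the difference there were 15 genes for Cybb and 14 for Ncf1. With 1 value per group this likeness is that of a single difference.

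Genes whose products act in the activation of the oxidase or restrain it were divided in direction. The activation list held 21 measured genes of 25, of which 11 were higher and 10 lower, with a median difference of 0.11. Higher past 1.5-fold were 4 of the 21, beside 1.64% of all genes. Nckap1l, a haematopoietic subunit of the actin regulator WAVE, measured 6.32 in Sham and 7.17 in CCI (1.81-fold). Vav1, which loads Rac with GTP, was at 4.83 and 5.53 (1.62-fold), the kinase Lyn at 6.28 and 6.95 (1.59-fold) and Arhgdib, which holds Rac2 in the cytosol, at 7.24 and 7.90 (1.57-fold). Under the threshold were Pla2g4a, the cytosolic phospholipase (1.44-fold higher), Arhgap25, which turns Rac off (1.34-fold higher), the kinase Syk (1.21-fold higher) and Dock2, which loads Rac with GTP in leukocytes (1.19-fold higher). The myeloid kinase Fgr was at 4.95 and 4.92. The 4 protein kinase C genes on the list, whose products can phosphorylate p47phox, differed by at most 1.10-fold. Pak1 was furthest below Sham, at 10.22 and 9.85 (1.29-fold lower).

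Receptors that trigger the oxidative burst and their adaptors had the larger differences. Of 11 measured genes on this list of 15, 10 were higher in CCI, with a median difference of 0.70. Past 1.5-fold upward were 7 of the 11, beside 1.64% of all genes. Clec7a, the β-glucan receptor that the study follows, had 6.49 in CCI against 3.79 in Sham, the latter under the background level, so that its fold was at least 4.67. Because the study picked it partly from these arrays, it is no independent evidence of the direction. Nor are the other genes of this list, which was chosen with earlier results of these data known. The Fc receptor Fcgr3a was at 5.40 and 6.71 (2.47-fold), and the adaptors Tyrobp and Fcer1g were at 7.20 and 8.30 (2.14-fold) and at 9.06 and 10.05 (1.99-fold). Itgam, the complement receptor chain CD11b, was at 5.68 and 6.57 (1.86-fold), and is counted among the microglia markers too, and Fcgr1a was at 6.56 and 7.17 (1.52-fold). Tlr2 had 3.98 and 4.68, the first of them under the background level, so that its fold was at least 1.33. It is counted among the 7, though a fold past 1.5 is not established for it, and its difference is the median given above. With values lifted to the background level, 6 genes of this list passed 1.5-fold and the median was 0.61. P2rx7, an ATP receptor of microglia, was the one with a lower value, at 6.59 and 6.40. Genes of the Fc receptor family are close relatives, and their probes may not separate them.

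Among 11 measured transcription factors that act on oxidase genes in phagocytes, 9 were higher in CCI, with a median difference of 0.12. Upward past 1.5-fold were 2 of the 11, beside 1.64% of all genes. Spi1, which encodes PU.1, measured 5.93 in Sham and 6.59 in CCI (1.58-fold), and Cebpa at 5.02 and 5.68 (1.57-fold). Irf8, which binds DNA together with PU.1, was at 6.14 and 6.49 (1.27-fold). Cebpb, the factor that the study links to Clec7a, was at 4.84 and 4.86. The study drew that link from protein, promoter assays, knockdown of C/EBPβ with add-back of Clec7a, and separate RNA-seq. These arrays measure none of these. Rela was furthest below Sham, at 8.32 and 8.15.

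**Figure D3:**
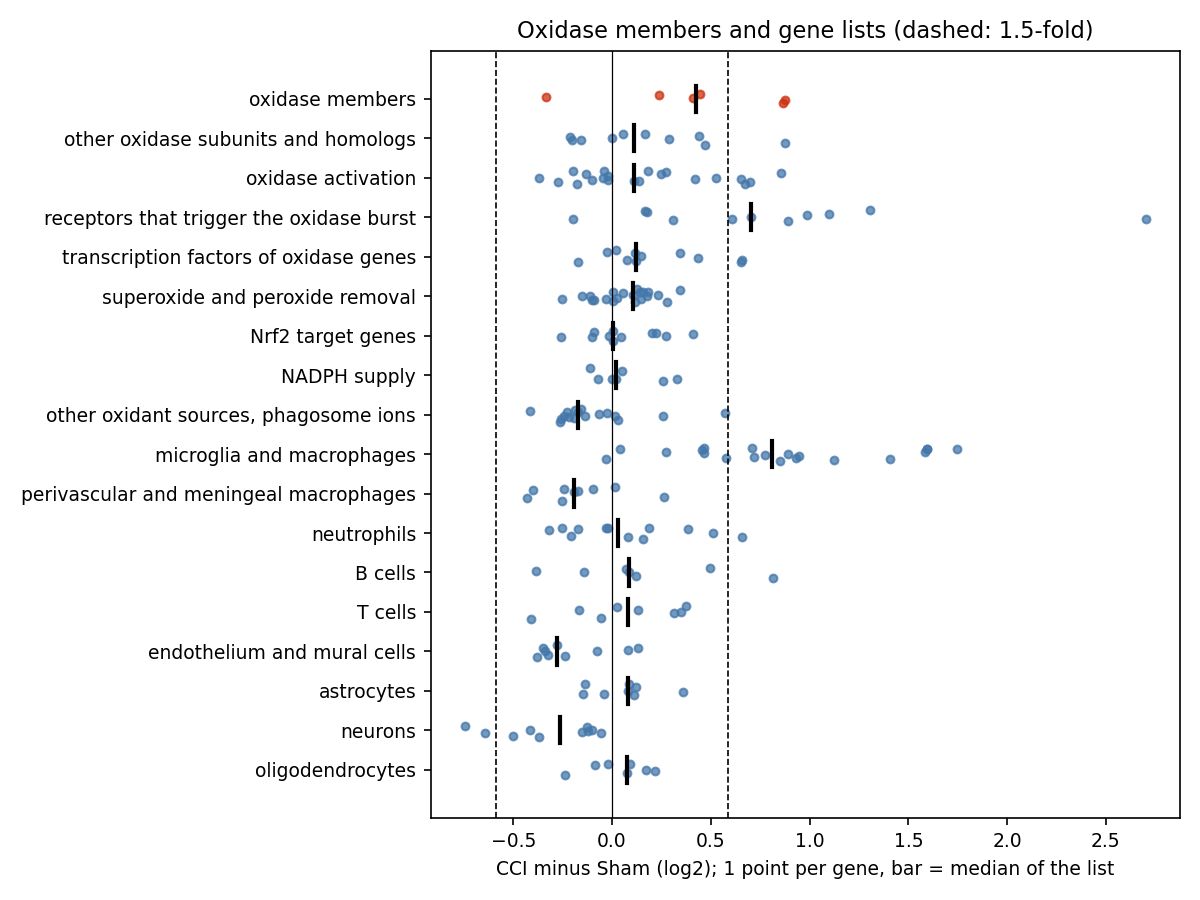
Difference CCI minus Sham (x axis, log2) of the 6 oxidase members and of every measured gene on 17 lists, with 1 point per gene, a black bar at the median of each list and dashed lines at 1.5-fold. The receptors that trigger the burst (median 0.70) and the microglia markers (0.81) have medians past the line, the members a median of 0.43, and the genes that remove superoxide and peroxide (0.11) stay between the lines.

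Genes that remove the products of the oxidase or feed it with NADPH did not pass 1.5-fold in either direction. Of 21 genes for the removal of superoxide and peroxide, 15 were higher and 6 lower, with a median difference of 0.11. All 6 peroxiredoxins, which reduce hydrogen peroxide, were higher, by at most 1.27-fold for Prdx4, at 5.35 in Sham and 5.69 in CCI. Sod1, Sod2 and Cat differed by 0.02, 0.11 and -0.03 on the log2 scale, and Gpx3 was furthest below Sham, at 7.84 and 7.59. Of 11 targets and regulators of the antioxidant factor Nrf2, 7 were higher and 4 lower, with a median of 0.01. Slc7a11, the cystine transporter, was highest, at 7.56 and 7.97 (1.33-fold), and Hmox1, haem oxygenase, lowest, at 6.23 and 5.97 (1.20-fold lower). Of 7 genes for NADPH supply, Idh1 was highest (1.26-fold) and the median was 0.02. Other oxidant sources and the ion pathways of phagosomes had a median of -0.17, with 4 of 17 genes higher and 13 lower. Aox1 was highest among them, at 5.35 and 5.92 (1.49-fold), and Clcn5 lowest, at 7.68 and 7.27 (1.33-fold lower). All 4 measured subunits of the proton pump V-ATPase were lower, by differences between -0.24 and -0.02, the lowest of them, Atp6v0d2, being below the background level on both arrays.

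Markers of microglia and macrophages moved with the oxidase core. Of 20 measured markers, 19 were higher in CCI and 13 passed 1.5-fold, beside 1.64% of all genes, with a median difference of 0.81. These markers too were chosen with earlier results of these data known, so that their direction is no independent evidence. Their summed linear signal was 4178 in Sham and 7560 in CCI, a ratio of 1.81, a sum in which markers with bright probes weigh most. The difference exceeded the median of the markers, in which all weigh alike, by 0.05 for Cybb and 0.06 for Ncf1. Cybb and Ncf1 stood in the middle of the markers, with 9 of the 20 showing a larger difference and 11 a smaller one. Aif1, which encodes Iba-1, reached 7.91 in CCI (2.65-fold), and the C1q chains were higher by up to 3.36-fold for C1qa. P2ry13 (1.80-fold), Itgam (1.86-fold), Ptprc (1.91-fold), Cd53 (1.93-fold) and Csf1r (1.71-fold) were among the markers nearest to Cybb. Cyba and Hvcn1 had larger differences than only 3 of the 20 markers, Tmem119 (5.93 and 6.20), Siglec5 (5.64 and 5.68) and Sall1 (7.72 and 7.69). The markers next above them were close, namely Cd68 (1.37-fold), Trem2 (1.38-fold) and P2ry12 (1.38-fold). All 20 markers were above the background level on both arrays, with Cd68 just over it in Sham, at 4.32. The part of cell number in the oxidase differences was not tested.

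**Figure D4:**
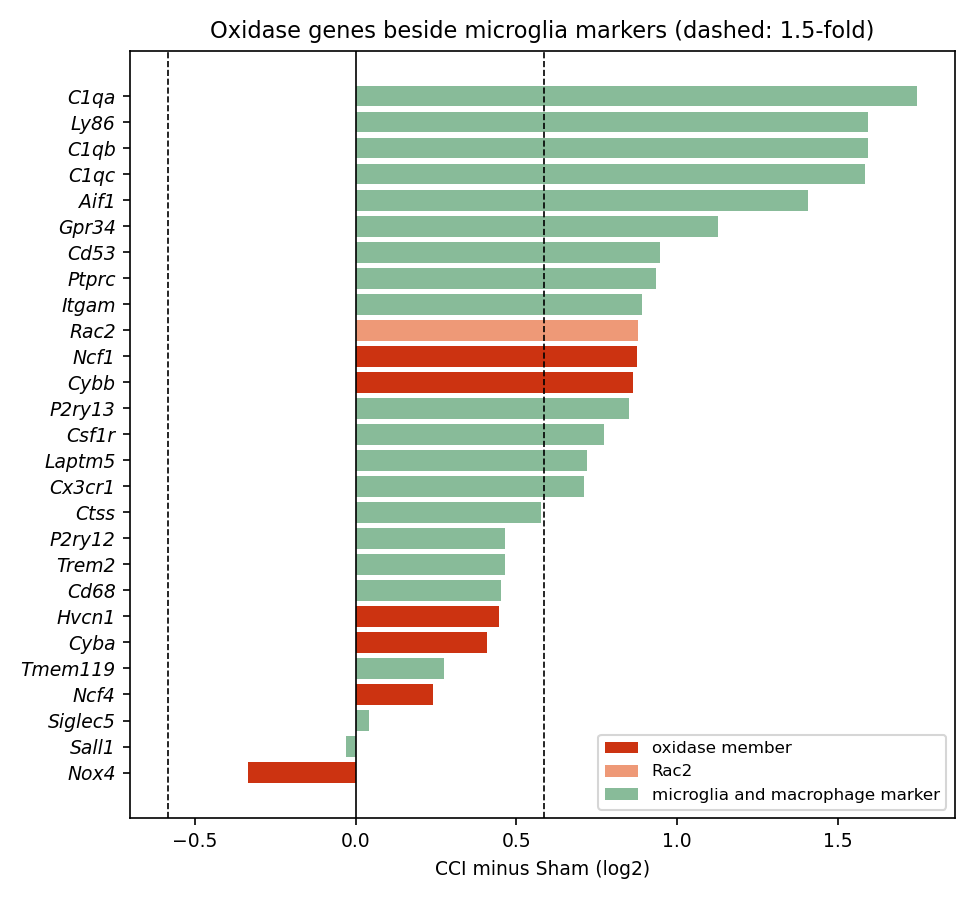
Difference CCI minus Sham (x axis, log2, bars from 0) of the 20 measured microglia and macrophage markers, the 6 oxidase members and Rac2, sorted by size, with dashed lines at 1.5-fold. Rac2, Ncf1 and Cybb stand next to each other between Itgam and P2ry13, whereas Hvcn1, Cyba and Ncf4 stand among the markers with small differences and Nox4 is lowest.

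Markers of other blood cells that carry the oxidase or its partners were mostly near or below the background level. Neutrophils hold the same enzyme, and of their 12 measured markers 6 were higher and 6 lower, with a median of 0.03, and 8 were below the background level on both arrays. Ngp, at 3.00 and 3.66, passed 1.5-fold below that level, and S100a9 was at 3.66 and 3.34. Of the 4 neutrophil markers above it on both arrays, Csf3r was 1.43-fold higher (4.72 and 5.23), Camp 1.11-fold higher, Mpo 1.13-fold lower and Fcnb 1.15-fold lower. The summed signal of this list, much of it from probes below the background level, was 174 in Sham and 186 in CCI. B cells also use Hv1, and 5 of their 7 measured markers were higher, with a median of 0.09 and a summed signal of 130 and 152. Of these 7 markers, 1 was higher past 1.5-fold, beside 1.64% of all genes. That gene was Cd22, a lectin that binds sialic acid, at 4.31 and 5.12 (1.76-fold). Of the other B cell markers above the background level on both arrays, Cd79b was 1.41-fold higher (4.46 and 4.96), Cd79a 1.09-fold higher and Blk 1.10-fold lower, whereas Ms4a1 was below the background level on both arrays, at 3.50 and 3.11. Of 8 T cell markers none passed 1.5-fold, 5 were below the background level on both arrays, among them Cd3e (3.30 and 3.68) and Cd3g (2.85 and 2.44), and the summed signal, with the same limit, was 130 and 141.

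Perivascular and meningeal macrophages, which are phagocytes too, had lower marker values. Of 9 measured markers 7 were lower and none passed 1.5-fold, with a median of -0.19 and a summed signal of 272 in Sham and 246 in CCI. Pf4 was highest, at 5.32 and 5.59, and Ms4a7 lowest, at 3.73 and 3.30, below the background level on both arrays. Of 9 endothelial and mural markers 7 were lower, with a median of -0.28, led by Pdgfrb at 6.42 and 6.04 (1.30-fold lower), while Cldn5 was highest (1.10-fold). All 10 neuronal markers were lower, with a median of -0.26. Chat (1.68-fold lower) and Gad1 (1.56-fold lower) passed the threshold, beside 1.14% of all genes downward. Astrocyte and oligodendrocyte markers had medians of 0.08 and 0.07, and Gfap was at 11.21 and 11.57 (1.28-fold).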

How the data were processed

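The deposited values were log2 expression values, which the authors made by RMA, a method that subtracts background, equalises the intensity distributions of the arrays and summarises the probes of a set. RMA compresses low values and hides a shift shared by most genes. Which genome build the probe annotation followed is not given in the sources used here. Each array held 28879 probe sets, of which 18511 named exactly 1 gene, 575 several and 9793 none. Symbols were updated by Entrez ID (18394 found in RefSeq, GRCr8), and of several probe sets the one with the highest mean was kept. The values were used without scaling or pseudocount, in Python 3.11.15 with pandas 2.3.3 and statsmodels 0.14.6. On simulated arrays only the count of genes past a fold threshold and the subtraction of an intensity trend were checked. The number of arrays limits the precision, and no test was possible.

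The study's 1.5-fold threshold was used without its P value. Background was the 95th percentile of genes named Olr, Vom1r or Vom2r; a fold is given as a bound where the dimmer value was at or below it, and not where both were. The 17 lists held 218 symbols, 196 of them measured. Members and lists were chosen with earlier results of these data known. Named were all members, list genes past 1.5-fold with a value above background, otherwise the extremes of a list, a few fixed genes (Rac1, Rac2, Spi1, Irf8, Clec7a and Aif1) and the 3 genes nearest in difference to Cybb and Ncf1; other genes were chosen after their values were seen, and microglia markers are given in part. Alternatives were a 2-fold threshold, the mean over probe sets, a lowess trend (span 0.3), centring, lifting values to background (95th or 90th percentile), the median level of 5.83 as a floor, and lists without shared members. Promoters are from RefSeq, GRCr8, and 5 of the 7 members matched.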

Additional observations from a re-analysis of the deposited data

How the results depend on the processing

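Only centring, which shifts all genes alike, and subtraction of the intensity trend could move the differences of Cybb, Ncf1, Cyba and Hvcn1. These genes have 1 probe set each and lie above every background level used. With the trend subtracted their differences (log2) were 0.92, 0.92, 0.46 and 0.47, on the same side of 1.5-fold. The mean of Hvcn1 was under the median level of 5.83, so that a floor there left Hvcn1 out. Ncf4 and Nox4 depended on the floor. Most olfactory receptors carry newer names, and with these counted too (1343 genes, chosen after the data were seen) the background level was 4.44 in Sham and 4.36 in CCI. Lifted to it, Ncf4 and Nox4 both became -0.074 from 0.24 and -0.33, since all their values then lie at the floor. This level moved 14 genes to another side of background, among them Ncf4, Syk, Cd22 and Cd68. Cd68 is a microglia marker, and its Sham value of 4.32 was under this level. The same level lowered the bounds to at least 4.16-fold for Clec7a and 1.19-fold for Tlr2. Lifting to the level used above moved the median of all genes to -0.11 and turned those of the other subunits and homologs (0.11 to -0.14), neutrophils (0.03 to -0.16), B cells (0.09 to -0.09) and T cells (0.08 to -0.16). That level is lower in CCI than in Sham, so that a gene lifted on both arrays takes -0.16 whatever its values. A floor at the median level turned the medians of the other subunits and homologs (to -0.0022) and the activation genes (0.11 to -0.04). All these medians therefore carry no direction.

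At 2-fold, 0 members were higher, and 0 of the other subunits, activation genes, transcription factors, neutrophil and B cell markers. At 2-fold, 3 receptors and 6 microglia markers were higher and 0 neuronal markers lower. With a floor at the median level, 1 transcription factor was past 1.5-fold. With the trend subtracted, 1 other oxidant source (Aox1) passed it, and with lifted values 0 neutrophil markers did. No other count moved by more than 1.5 times. No paired analysis was possible because each group was 1 array with no replicate numbers and no array to leave out.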
